A study of Mus musculus with 2 samples.

Results

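The Hippo pathway genes described here are the coactivators Yap1 and Wwtr1, the TEAD transcription factors Tead1 to Tead4, the kinases Lats1 and Lats2, and the matricellular targets Ctgf and Cyr61. They were chosen by symbol, as rows of the deposited expression table that name a single gene. Of these 10 genes, 9 had such a row among the 35798 rows of the table, and Lats2 shared a row with Xpo4. RNA was sequenced from sorted mouse bone marrow cells that lacked CD45, CD31 and Ter119 and carried GFP under nestin regulatory sequence, a reporter of perivascular stromal cells. The JAK2 V617F library came from adult C57BL/6 mice with Nes-gfp, Mx1-cre and JAK2-V617F, and the control library from littermates labelled Nes-gfp only. All mice were studied 6 weeks after pIpC, an interferon inducer that switches on Mx1-cre. Mx1-cre acts in blood cells and in other interferon-responsive cells, and the labels give no Cre for the controls, so effects of Cre and of the mutation cannot be told apart. Cells of 3 animals went into each library, and each genotype had a single library (n = 1), so no value has a replicate error and no test between genotypes was possible. In pooled RNA, fewer cells of a type and less RNA per cell cannot be told apart.

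The Hippo pathway limits growth through a kinase cascade in which the MST kinases activate LATS1 and LATS2. LATS kinases phosphorylate YAP and TAZ (the product of Wwtr1), which are then held in the cytoplasm or degraded. Unphosphorylated YAP and TAZ enter the nucleus and bind TEAD factors, which carry the DNA-binding domain, and switch on genes such as Ctgf and Cyr61. In mesenchymal cells the pathway responds to matrix stiffness and cell shape, and TAZ also binds RUNX2 and PPARG, factors of bone and fat differentiation. YAP and TAZ are controlled largely at the protein level, which RNA values do not measure.

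The values are FPKM, fragments scaled by transcript length and by library size as the authors computed them. Levels of different genes can be compared only as far as the assigned transcript lengths hold, and the table does not give those lengths. Differences are given as log2((JAK2 V617F FPKM + 1)/(control FPKM + 1)), a scale that understates the change of low genes. A gene was called past 2-fold at 1 or more, or -1 or less, on this scale, among genes that reached 1 FPKM in either library. The estimated depth was about 6252060 fragments in the JAK2 V617F library and about 5408490 fragments in the control library. For a 2 kb transcript, a single fragment came to about 0.0874 FPKM in the JAK2 V617F library and 0.101 FPKM in the control library. Across 12439 protein-coding genes the median log2 ratio was -0.04.

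All 9 members with a row of their own passed the filter, and the calls that follow describe the same values the members were chosen with. In the JAK2 V617F library 2 members lay past 2-fold higher, Tead3 and Tead4, and 1 lay past 2-fold lower, Tead2. Tead4 reached the filter only through the JAK2 V617F library, and its place past 2-fold is set by the pseudocount, since its control value is listed at 0. Of protein-coding genes, 10% were past 2-fold higher, 8.67% past 2-fold lower and 18.7% past 2-fold in either direction. The highest member was Ctgf in the JAK2 V617F library and also in the control library, and Tead4 was the lowest in each. Tead2 was the second highest member in the control library and the second lowest in the JAK2 V617F library.

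**Figure D1:**
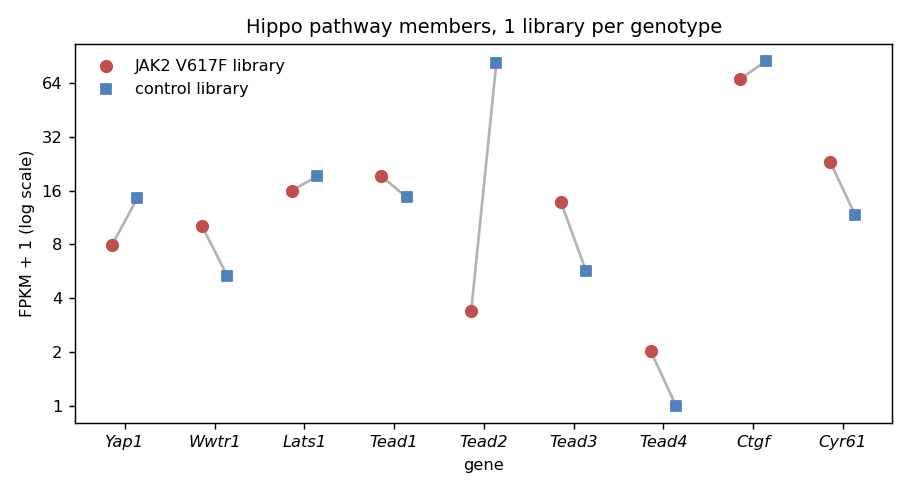
Level of each Hippo pathway member as FPKM + 1 on a log axis, with the JAK2 V617F library (circles) left of the control library (squares) and a line joining the 2 single libraries of a gene. Tead2 stands at 2.40 FPKM in the JAK2 V617F library and 82.2 FPKM in the control library, while every other member with a value above 0 in both libraries lies within 3-fold as a plain ratio.

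The paired coactivators differed in opposite directions. Yap1 was at 6.97 FPKM in the JAK2 V617F library and 13.5 FPKM in the control library (log2 ratio -0.86). Wwtr1, which encodes TAZ, was at 9.12 FPKM in the JAK2 V617F library and 4.34 FPKM in the control library (0.92). Neither passed 2-fold, and both lay close to it. Their summed level was 16.1 FPKM in the JAK2 V617F library and 17.9 FPKM in the control library. Yap1 made up 43.3% of that sum in the JAK2 V617F library and 75.7% in the control library. By FPKM, Wwtr1 was the higher coactivator in the mutant pool and Yap1 in the control pool. The Yap1 level depends on which of its coding transcripts, of 1193 to 4171 nt, were counted. The Yap1 locus on chromosome 9 (7931999 to 8004596, GRCm38) also holds Gm20416, on the opposite strand, at 2.25 FPKM in the JAK2 V617F library and 1.30 FPKM in the control library. The Wwtr1 locus on chromosome 3 (57455649 to 57575910) holds the pseudogene Gm16016, listed at 0 in the JAK2 V617F library and at 2.36 FPKM in the control library. The sources used here do not say whether counting used strand.

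Of the LATS kinases, which restrain YAP and TAZ, only Lats1 had a value of its own, and it was within 2-fold. Lats1 was at 15.0 FPKM in the JAK2 V617F library and 18.2 FPKM in the control library (log2 ratio -0.26), with its locus on chromosome 10 (7681209 to 7716458) free of any other row. The row shared by Lats2 and Xpo4, a nuclear export receptor gene, was at 49.9 FPKM in the JAK2 V617F library and 65.8 FPKM in the control library, and how much of it belongs to Lats2 is unknown.

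The TEAD family held the members past 2-fold. Tead1 was at 18.2 FPKM in the JAK2 V617F library and 13.7 FPKM in the control library (log2 ratio 0.39). The Tead1 locus also holds 2310014F06Rik, listed at 0 in the JAK2 V617F library and at 1.22 FPKM in the control library. Tead2 was at 2.40 FPKM in the JAK2 V617F library and 82.2 FPKM in the control library (-4.61). Tead3 was at 12.8 FPKM in the JAK2 V617F library and 4.66 FPKM in the control library (1.28). Tead4 was at 1.02 FPKM in the JAK2 V617F library and listed at 0 in the control library, so no fold is given for it. In the JAK2 V617F library that value would stand for about 18.6 fragments on the longest coding transcript and about 1.27 on the shortest, where 3 fragments would be worth 2.42 FPKM. In the control library 3 fragments would be worth 0.191 FPKM on the longest coding transcript and 2.80 FPKM on the shortest, so the depth limits what either value can show.

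Tead2 differed most among the members. Its log2 ratio ranked 3 from the lowest among the 12439 protein-coding genes. In the JAK2 V617F library Tead2 stood above 16.0% of the protein-coding genes, against 91.5% in the control library. Its row covers chromosome 7 from 45215753 to 45239115, a span that also holds Cd37, a leukocyte tetraspanin gene on the opposite strand whose 3′ end overlaps that of Tead2 by 13 bases in GENCODE vM21. Cd37 has a row of its own at 64.4 FPKM in the JAK2 V617F library and 69.3 FPKM in the control library (log2 ratio -0.10), close between the pools. GENCODE vM21 lists 17 Tead2 transcripts of 178 to 3396 nt, and the table does not say which of them carried the fragments. If all came from the longest coding transcript, the values would stand for about 48.3 fragments in the JAK2 V617F library and 1433 in the control library. If all came from the shortest coding transcript, of 388 nt, they would stand for about 3.27 fragments in the JAK2 V617F library and 96.9 in the control library. Among protein-coding genes, 17.9% of those whose locus is shared with another row were past 2-fold, against 19.2% of those with a locus of their own. These shares describe many genes at 2-fold and do not speak to a single row such as that of Tead2. The effect of the shared locus on the Tead2 value was not tested.

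The makeup of the TEAD family differed between the pools. The 4 TEAD genes summed to 34.4 FPKM in the JAK2 V617F library and 100.5 FPKM in the control library. Tead2 gave 6.96% of that sum in the JAK2 V617F library and 81.8% in the control library. Tead1 gave 52.9% in the JAK2 V617F library and 13.6% in the control library, and Tead3 gave 37.1% in the JAK2 V617F library and 4.63% in the control library. An FPKM depends on the transcript length that fragments are assigned to, so the level of Tead2, the family sum and these shares all depend on which Tead2 transcripts were counted, which the table does not give. Without Tead2 the sum was 32.0 FPKM in the JAK2 V617F library and 18.3 FPKM in the control library. The TEAD coding sequences are similar but not near-identical. Over aligned bases, Tead2 was 72.8% identical to Tead1, 74.8% to Tead3 and 72.9% to Tead4, and its longest exact shared run was 35 nt, with Tead3. The longest shared run within the family was 59 nt, between Tead3 and Tead4, and reads that fall within such a run cannot be assigned to a single gene.

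**Figure D2:**
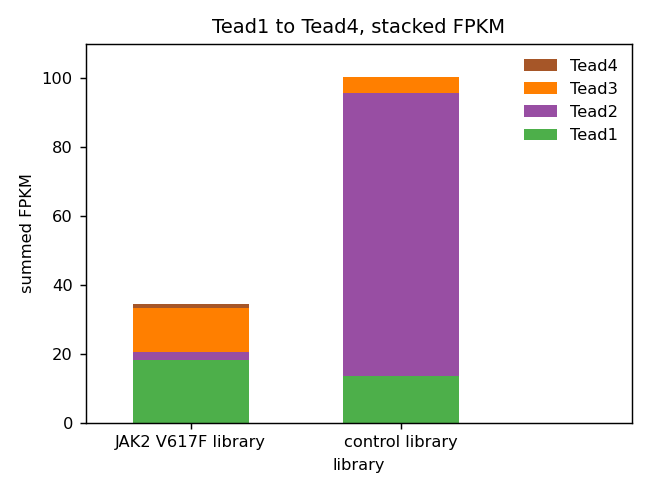
Stacked FPKM of Tead1, Tead2, Tead3 and Tead4 in the JAK2 V617F library (left) and the control library (right), with 1 bar per library. The bars reach 34.4 FPKM for JAK2 V617F and 100.5 FPKM for control, and Tead2 accounts for 2.40 FPKM of the left bar and 82.2 FPKM of the right bar.

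Ctgf and Cyr61 encode the CCN2 and CCN1 proteins, secreted regulators of adhesion and matrix and the most used readouts of YAP and TAZ activity. Ctgf was at 66.4 FPKM in the JAK2 V617F library and 83.7 FPKM in the control library (log2 ratio -0.33). The row spans chromosome 10 from 24549441 to 24598683, which includes the antisense transcript Gm15270, at 7.64 FPKM in the JAK2 V617F library and 15.3 FPKM in the control library, whose span overlaps that of Ctgf by 1667 bases. Cyr61 was at 22.1 FPKM in the JAK2 V617F library and 10.6 FPKM in the control library (0.99), just short of 2-fold on the scale used. Cyr61 is the only member with a single annotated transcript, of 2019 nt on chromosome 3 (145646971 to 145649985). Its fragments could therefore be estimated without a choice among transcripts. About 256 fragments in the JAK2 V617F library and 106 in the control library gave a plain ratio of 2.08, with an exact (Clopper-Pearson) 95% interval of 1.66 to 2.65 that covers counting error only. In FPKM, Ctgf was 3.00 times the level of Cyr61 in the JAK2 V617F library and 7.88 times in the control library. These multiples depend on which Ctgf coding transcripts, of 343 to 2490 nt, were counted. The pair of classical targets differed in direction, with the log2 ratio of Ctgf below 0 and that of Cyr61 above.

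**Figure D3:**
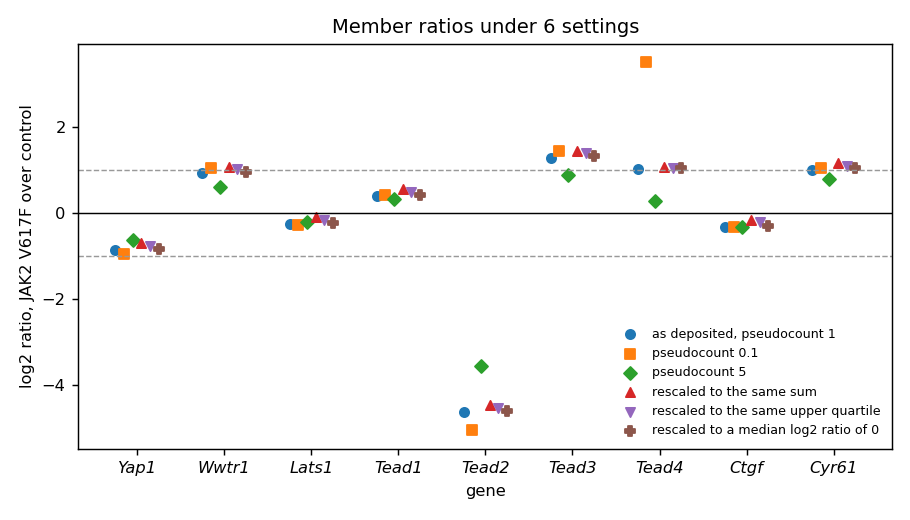
Log2 ratio of each member, JAK2 V617F over control, under the deposited scale and 5 alternatives of pseudocount or scaling, with dashed lines at 2-fold. Tead2 lies between -5.04 and -3.56 under all 6 settings, and Wwtr1, Cyr61, Tead3 and Tead4 cross the 2-fold line between settings.

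Promoter sequence is shown for Cyr61, a classical TEAD target, and for Tead2, the member with the largest difference. The letters are RefSeq's for GRCm38.p6, read on the gene's strand up to the base before the annotated transcript. Capitals mark the TEAD core hexamer, CATTCC on one strand and GGAATG on the other, which was searched on both strands.
Cyr61, chr3:145649986-145650235, minus strand: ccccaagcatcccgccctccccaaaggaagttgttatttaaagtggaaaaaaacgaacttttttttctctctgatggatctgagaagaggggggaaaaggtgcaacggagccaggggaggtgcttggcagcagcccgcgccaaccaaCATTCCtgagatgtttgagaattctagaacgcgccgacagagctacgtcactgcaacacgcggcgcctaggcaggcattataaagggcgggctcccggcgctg
Tead2, chr7:45215542-45215752, plus strand: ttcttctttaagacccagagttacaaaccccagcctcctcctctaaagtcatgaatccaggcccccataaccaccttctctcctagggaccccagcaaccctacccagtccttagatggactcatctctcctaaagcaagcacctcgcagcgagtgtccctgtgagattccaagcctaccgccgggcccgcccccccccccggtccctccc
The Cyr61 window holds 1 hexamer, which begins 103 bases before the start, and the Tead2 window holds none. For Tead2 the window searched runs on to 45215791, past the last letter shown, because the RefSeq start used lies inside the annotated gene span. In windows of 250 bases before a start, 12.6% of 32817 RefSeq promoters hold the hexamer. Windows were found for 7 of the 10 members, and Ctgf, Tead1 and Tead4 had no entry. The hexamer occurs in at least 1 window of 4 of these 7 members, namely Cyr61, Yap1, Wwtr1 and Tead3, and in none of Tead2, Lats1 and Lats2. Wwtr1, Tead3 and Lats2 have more than 1 window each, and the Wwtr1 windows overlap and share the same hexamer. The 12.6% counts single windows, so it is not a background for this count of genes. A hexamer of each of the other 3 genes is shown with 10 bases on either side, since these genes encode the coactivators and a TEAD factor themselves. Tead3 has several annotated starts, and the hexamer shown lies 182 bases before the most upstream of them. Another Tead3 start has 2 further hexamers, 123 and 114 bases before it, which are not shown.
Yap1, chr9:8004722-8004747, minus strand: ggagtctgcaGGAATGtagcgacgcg
Wwtr1, chr3:57576031-57576056, minus strand: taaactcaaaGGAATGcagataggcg
Tead3, chr17:28350972-28350997, minus strand: cgacgagcgaGGAATGgggtgcgcgg
Of the 4 members with the hexamer, Cyr61, Wwtr1 and Tead3 had ratios above 0 and Yap1 a ratio below 0. Without it, Tead2 and Lats1 had ratios below 0, and Lats2 had no value of its own. These few genes were chosen with their values known, so no link between hexamer and direction is read from them. The AP-1 motif TGANTCA and the CArG box of serum response factor were in none of the members' windows, against 6.75% and 1.47% of all windows. Shares this low give few or no matches in 11 windows, so the absence is not read as a depletion. A match describes letters and is not evidence of binding.

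The rest of the pathway was described from 121 further genes in 10 lists, of which 119 had a row and 111 reached 1 FPKM. In the JAK2 V617F library, 7 of the 111 were past 2-fold higher and 10 past 2-fold lower, together 15.3% against 18.7% of all protein-coding genes. Their median log2 ratio was -0.13, with 45 above 0 and 66 below. A single list holds few genes, so its count past 2-fold stands beside that 18.7% and is not read as a result about the list.

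In the core cassette of kinases and scaffolds that activates LATS, 1 of 10 genes was past 2-fold (median -0.22), against 18.7% of protein-coding genes. Wwc1, which encodes the scaffold KIBRA, was at 1.57 FPKM in the JAK2 V617F library and 9.96 FPKM in the control library (log2 ratio -2.09). Mob1a, a LATS cofactor, was at 64.8 FPKM in the JAK2 V617F library and 71.1 FPKM in the control library. Stk4, which encodes MST1, was at 33.6 FPKM in the JAK2 V617F library and 41.8 FPKM in the control library, and the LATS-related kinase gene Stk38 was at 34.3 FPKM in JAK2 V617F and 34.0 FPKM in control. None of the 12 genes of STRIPAK, a phosphatase complex that opposes the MST kinases, was past 2-fold (median -0.28). Its most abundant members, Fgfr1op2 (69.8 FPKM in JAK2 V617F, 67.9 in control), Pdcd10 (50.5 in JAK2 V617F, 69.4 in control) and Slmap (48.1 in JAK2 V617F, 67.5 in control), were all within 2-fold.

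Kinases upstream of LATS or of its adaptors had 3 of 14 genes past 2-fold higher and 1 lower, with a median of -0.09. The MAP4K family gene Tnik was at 21.6 FPKM in the JAK2 V617F library and 6.57 FPKM in the control library (1.58). The polarity kinase genes Mark4 (8.87 FPKM in JAK2 V617F, 1.11 in control) and Mark1 (2.64 in JAK2 V617F, 0.779 in control) were also higher. Mark2, of the same family, was lower, at 88.6 FPKM in the JAK2 V617F library and 666 FPKM in the control library (-2.90), in a row whose locus is shared with another. Among genes of the other lists given below, Rassf5, Zyx, Dlg5, Mkl1 and Csnk1e, all past 2-fold, also share a locus, as does Asap1. The effect of sharing on these values was not tested. Within 2-fold were Taok3 (56.4 FPKM in JAK2 V617F, 55.6 in control) and Map4k5 (32.1 in JAK2 V617F, 55.3 in control).

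A list drawn up of adaptors that hold YAP at junctions or promote LATS had 2 of 13 genes past 2-fold lower and 0 higher (median -0.10). The role may not hold for every gene of the list, and it was not tested here. Amotl1, an angiomotin that binds YAP, was at 7.11 FPKM in the JAK2 V617F library and 20.5 FPKM in the control library (-1.41), and Rassf5 was at 3.95 FPKM in JAK2 V617F and 9.39 FPKM in control (-1.07). The junction gene Tjp1 was at 32.0 FPKM in the JAK2 V617F library and 34.3 FPKM in the control library, and Trp53bp2 at 10.2 FPKM in JAK2 V617F and 18.6 FPKM in control. Outside that list, Zyx, a focal adhesion LIM protein gene, was at 25.9 FPKM in the JAK2 V617F library and 11.8 FPKM in the control library (1.07). Dlg5 was at 11.8 FPKM in the JAK2 V617F library and 30.3 FPKM in the control library (-1.29). Limd1, a LIM protein gene, was at 36.8 FPKM in the JAK2 V617F library and 48.2 FPKM in the control library.

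In the list of polarity genes and atypical cadherins, 2 of 13 were past 2-fold lower and none higher (median -0.28). These were Fjx1 (1.55 FPKM in JAK2 V617F, 4.21 in control) and Llgl2 (0.477 in JAK2 V617F, 2.63 in control). The abundant genes of the list were Dlg1 (32.6 FPKM in JAK2 V617F, 43.2 in control), Fat1 (25.9 in JAK2 V617F, 43.7 in control) and Pard3 (14.0 in JAK2 V617F, 27.2 in control), all within 2-fold.

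TEAD cofactors and partners had 1 of 12 genes higher and 1 lower, with a median of 0.07. Mkl1, which encodes the actin-regulated coactivator MRTF-A of serum response factor, was at 46.1 FPKM in the JAK2 V617F library and 14.3 FPKM in the control library (1.62). Vgll1, a TEAD-binding cofactor gene, had a listed value of 0 in the JAK2 V617F library and 1.41 FPKM in the control library. Runx2 (64.6 FPKM in JAK2 V617F, 86.3 in control), Ncoa2 (36.5 in JAK2 V617F, 31.7 in control) and Runx1 (34.1 in JAK2 V617F, 31.8 in control) were within 2-fold. Of 8 genes that control the turnover of YAP and TAZ (median 0.10), the casein kinase gene Csnk1e was past 2-fold, at 29.1 FPKM in the JAK2 V617F library and 13.5 FPKM in the control library (1.05). The ubiquitin ligase gene Nedd4 was at 145 FPKM in the JAK2 V617F library and 132 FPKM in the control library, Csnk1d at 74.4 FPKM in JAK2 V617F and 56.1 FPKM in control, and Fbxw11 at 34.9 FPKM in JAK2 V617F and 39.4 FPKM in control.

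The other CCN genes were split in direction. Of 4, 2 were past 2-fold lower in the JAK2 V617F library and 0 higher (median -0.92). Wisp1, a CCN gene of osteogenic cells, was at 6.61 FPKM in the JAK2 V617F library and 26.6 FPKM in the control library (-1.86). Nov was at 1.37 FPKM in the JAK2 V617F library and 9.86 FPKM in the control library (-2.19). Wisp2 was at 20.1 FPKM in the JAK2 V617F library and 19.7 FPKM in the control library. Of 18 measured YAP and TAZ targets other than Lats2, Ctgf and Cyr61, 1 was higher and 1 lower, with a median of -0.14, 7 above 0 and 11 below. Ankrd1, a much used YAP target, was at 3.64 FPKM in the JAK2 V617F library and 0.999 FPKM in the control library (1.21), and the lower gene was Fjx1, given above. Asap1 (418 FPKM in JAK2 V617F, 268 in control), Axl (43.8 in JAK2 V617F, 25.7 in control) and Gadd45a (17.6 in JAK2 V617F, 23.7 in control) were the most abundant and were within 2-fold.

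**Figure D4:**
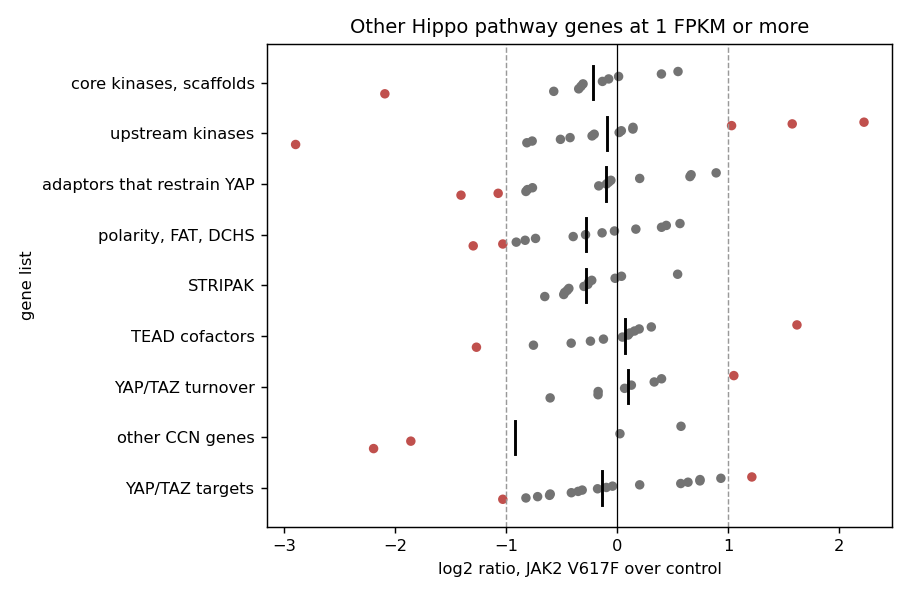
Log2 ratio, JAK2 V617F over control, of the other Hippo pathway genes at 1 FPKM or more in 9 of the 10 lists, with 1 point per gene, a black bar at each list's median, dashed lines at 2-fold and red points past it. List medians lie between -0.28 and 0.10 except for the 4 other CCN genes, whose median is -0.92.

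Cell type markers also differed between the pools. Their counts stand beside 10% of protein-coding genes past 2-fold higher and 8.67% past 2-fold lower. Nes, the gene of the sorting reporter, was low, at 3.00 FPKM in JAK2 V617F and 4.84 FPKM in control. Ptprc, which encodes CD45, was at 8.79 FPKM in JAK2 V617F and 5.38 FPKM in control, and Pecam1, which encodes CD31, at 19.0 FPKM in JAK2 V617F and 17.1 FPKM in control. Stromal markers had 10 of 10 genes within 2-fold (summed level 994 FPKM in JAK2 V617F, 1233 in control), led by Cxcl12 (694 in JAK2 V617F, 891 in control), Lepr (65.4 in JAK2 V617F, 84.8 in control) and Ebf1 (58.7 in JAK2 V617F, 58.3 in control). Chondrocyte markers had 8 of 10 genes past 2-fold higher (sum 1898 FPKM in JAK2 V617F, 343 in control). Prg4 (1234 in JAK2 V617F, 20.1 in control) made up most of the JAK2 V617F sum, in a row whose locus is shared with another. Col2a1 (238 in JAK2 V617F, 178 in control) and Acan (20.0 in JAK2 V617F, 17.7 in control) were within 2-fold. Osteoblast markers had 4 of 10 past 2-fold lower (sum 4156 FPKM in JAK2 V617F, 8179 in control), and the most abundant, Col1a1, was within it (1436 in JAK2 V617F, 2784 in control). Smooth muscle markers had 3 of 6 past 2-fold higher (sum 274 FPKM in JAK2 V617F, 146 in control), with Rgs5 at 183 FPKM in JAK2 V617F and 115 FPKM in control, while Cnn1, a defining marker, stayed below 1 FPKM in both. Erythroid markers had 2 of 7 past 2-fold lower (sum 1047 FPKM in JAK2 V617F, 2197 in control) and leukocyte markers 2 of 8 past 2-fold higher (sum 495 in JAK2 V617F, 358 in control), although the sort selected against both cell types. Megakaryocyte markers had 3 of 7 past 2-fold higher (sum 64.1 FPKM in JAK2 V617F, 15.2 in control), and Pf4 and Ppbp were listed at 0 in the control library. Stem and progenitor markers had 4 of 8 past 2-fold higher (sum 114 FPKM in JAK2 V617F, 105 in control), and endothelial markers 2 of 8 (sum 45.4 in JAK2 V617F, 37.5 in control). The part of these cell types in the values of Tead2, Tead3, Wwtr1, Yap1 and Cyr61 was not tested.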

How the data were processed

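RNA was measured in 2 libraries, 1 of JAK2 V617F and 1 of control cells, each amplified from 2 to 3 ng of RNA per the labels' protocols. The authors deposited FPKM values. The tools named in the submitters' processing notes are Bowtie2 2.0.6, TopHat2 2.0.7, cutadapt 1.2.1 and Cufflinks, and the build is GRCm38. Nothing used here states the annotation release, the strand setting or the Cufflinks options. The members and lists were chosen with earlier results of these data known. Transcripts came from GENCODE vM21, and gene types and synonyms from RefSeq's table of GRCm38.p6. Log2 ratios used a pseudocount of 1 FPKM and a filter of 1 FPKM in at least 1 library. Depth came from 5575 single-transcript genes, whose FPKM times length minus 170 nt fell into steps. That offset was the sharpest of a scan, so 85.2% and 82.7% of low values near whole fragments (within 0.2) in the JAK2 V617F and control libraries are not independent evidence. The depth method and the calls were tested on simulated data. All members, all genes past 2-fold and the 3 most abundant genes of each pathway list were named, except for 1 list that is not reported here as a list. Alternatives were pseudocounts, filters and scalings. Protein sequences were not used here. Python 3.11.15, pandas 2.3.3, numpy 2.4.6 and scipy 1.17.1 were used.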

Additional observations from a re-analysis of the deposited data

How the results depend on the processing

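The member count past 2-fold lower was 1, Tead2, on the deposited scale and under all 7 alternatives. The count past 2-fold higher, 2 on the deposited scale, was 4 with a pseudocount of 0.1, after rescaling to the same sum and after rescaling to the same upper quartile, where Wwtr1 and Cyr61 joined Tead3 and Tead4. It was 1 with a filter at 5 FPKM and 0 with a pseudocount of 5, where Tead3 was at 0.88. It was 3 after rescaling to a median log2 ratio of 0, with Cyr61 at 1.03. Of the other pathway genes, 3 were past 2-fold higher and 6 lower with a pseudocount of 5, against 7 and 10 on the deposited scale. Rescaling to the same sum moved the median of protein-coding genes by 0.16, to 0.12, and against it Wwtr1 was at 1.07 and Cyr61 at 1.16. Rescaling to the same upper quartile moved it by 0.10. No member changed sign under the 5 alternatives of pseudocount and scaling, but these could not have changed a sign. A pseudocount leaves the sign of a ratio as it is. The largest scaling moved the median by 0.16, while the member ratio smallest in size was that of Lats1, at -0.26. No paired analysis was possible because there was 1 library per group, and no library could be left out. Only Cyr61 has a single annotated length from which to estimate fragments. For Wwtr1 the 2 annotated transcripts give a narrow range, about 249 to 258 fragments in JAK2 V617F and 103 to 106 in control. The range is wider for the other members.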
